A study of Mus musculus with 5 samples.

Results

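Plasmacytoid dendritic cells (pDCs) are the dendritic cells that release large amounts of type I interferon when they sense viral nucleic acid. The 10 genes described here are used to recognise them in the mouse: Siglech, Bst2, Tcf4, Spib, Ly6d, Pacsin1, Klk1, Cox6a2, Runx2 and Pld4. They were read from every probe set, a group of array probes that targets a transcript, whose annotation gives exactly 1 gene symbol. That rule found 9 of the 10 genes, on 19 of 34945 such probe sets, out of 18193 genes in all. Runx2 was named on none of them and has no value here.

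Dendritic cells (DCs) from the brain were compared with monocytes from bone marrow, all sorted from C57BL/6 mice labelled female and 6 to 8 weeks old, with 1 Affymetrix array per sample. The brain DC group had 2 arrays. Its cells were negative for a lineage panel whose antibodies the labels do not list, and had high CD45 and surface CD11c. Their mice carried B16-Flt3L tumour cells, of which 1000000 were given under the skin 12 days before harvest. Flt3 ligand is a growth factor that expands plasmacytoid and conventional DCs, so these are DCs of a stimulated animal. The monocyte group had 3 arrays, sorted on low side scatter, high CD11b and CD115, and its labels give no treatment. Cell type, tissue and treatment therefore cannot be told apart. Nothing in the labels says that the arrays came from different mice, and the p-values may then reflect technical spread alone.

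pDC identity is held by a small set of transcription factors. Tcf4 encodes E2-2, an E protein that binds DNA at E-boxes and is needed to make and keep pDCs, Spib encodes an Ets family factor related to PU.1, and Runx2 acts in their exit from the marrow. Id proteins pair with E proteins and keep them off DNA, and Id2 is a feature of conventional DCs. At the surface, Siglech is a sialic acid-binding receptor that signals through the adaptor DAP12, and Bst2 (tetherin, PDCA-1) holds budding virus particles on the membrane. Inside the cell, Pacsin1 is a membrane-bending adaptor and Pld4 an endolysosomal nuclease, and both bear on the path by which TLR9 and TLR7 read nucleic acid. None of these genes is exclusive to pDCs. Siglech and Pld4 are also expressed by microglia, Spib and Ly6d by B-lineage cells, Tcf4 by many tissues, and Bst2 by most cells after interferon.

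The promoter windows of Siglech, Bst2 and Spib are shown because these were the members whose gene means differed between the groups. They are RefSeq sequences of build GRCm38.p6, from 250 bases before to 50 bases after the gene start, and were matched by symbol for 7 of the 10 members, all but Tcf4, Ly6d and Cox6a2. Capitals mark E-boxes, CANNTG on either strand, in Siglech and Spib. In Bst2 they mark the core of an interferon response element on either strand, which is GAAA, any 2 bases and GAAA again.
Siglech, chr7:55767934-55768233, plus strand: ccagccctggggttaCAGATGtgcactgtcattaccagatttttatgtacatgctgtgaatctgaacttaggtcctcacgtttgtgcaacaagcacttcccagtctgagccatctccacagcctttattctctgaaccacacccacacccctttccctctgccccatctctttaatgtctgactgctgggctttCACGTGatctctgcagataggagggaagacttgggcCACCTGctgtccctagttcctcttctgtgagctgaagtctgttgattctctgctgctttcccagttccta
Bst2, chr8:71537423-71537722, minus strand: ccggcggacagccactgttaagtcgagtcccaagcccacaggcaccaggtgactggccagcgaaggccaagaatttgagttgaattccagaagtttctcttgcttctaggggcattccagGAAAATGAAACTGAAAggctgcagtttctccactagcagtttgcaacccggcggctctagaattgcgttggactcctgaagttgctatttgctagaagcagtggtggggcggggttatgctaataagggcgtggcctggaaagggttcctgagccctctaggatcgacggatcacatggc
Spib, chr7:44532022-44532321, minus strand: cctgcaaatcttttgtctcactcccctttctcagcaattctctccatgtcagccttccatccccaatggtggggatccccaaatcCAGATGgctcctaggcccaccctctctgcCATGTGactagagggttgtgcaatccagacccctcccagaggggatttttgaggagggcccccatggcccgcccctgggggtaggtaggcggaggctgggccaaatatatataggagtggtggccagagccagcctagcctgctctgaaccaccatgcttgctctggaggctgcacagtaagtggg
Bst2 held 2 overlapping copies of the interferon response core, at bases 121 to 130 and 127 to 136 of its window. Of all 32851 windows of this length, 3.44% held that core, and of the 7 members Bst2 alone did. E-boxes were in 6 of the 7 members but also in 72.3% of all windows. The E-box form CAGGTG, which lies within CANNTG, was in Siglech, Bst2 and Klk1, against 20.2% of all windows, and CAGCTG was in 0 of the 7, against 16.3%. The Ets motif GGAAGT and the PU box GAGGAA were each in Siglech and Pld4, against 23.8% and 28.3% of all windows. The RUNX motif TGTGGT was in Siglech, Pacsin1 and Runx2, against 16.8%. All were searched on both strands, and these matches describe letters in a window, not binding.

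Each deposited log2 value is set against its own probe set's baseline. It compares arrays, gives no level between genes, and near 0 does not mean that a transcript is absent. Array medians lay between -0.05 and 0.00. All 24 probe sets that read poly-A RNA spiked in at labelling gave a positive difference, brain DC minus monocyte, with a median of 2.59, and their part in any result was not tested. Genes of the labelled cell types were read too, but their lists were chosen with earlier results of these data known. They are therefore no independent check of the labels. Of the measured conventional DC genes, 12 of 12 were higher in brain DCs, where 16.9% of all genes were. Of 11 monocyte genes, 9 were lower, where 16.9% of all genes were, 1 was not called, and S100a9, which neutrophils also express, was higher (1.41 ± 0.28). Xist, which is transcribed from the inactive X chromosome, had a difference of 5.62 although both groups are labelled female. The Y-linked genes Kdm5d and Eif2s3y had differences of -1.09 and -0.62. Whether the groups differ in the sex of their mice was not tested, and sex could then not be told apart from cell type. Every difference in what follows is in log2 units, with the brain DC mean first, ± the SE of the limma fit (2 against 3 arrays). A gene is called at a limma p under 0.05 after Benjamini-Hochberg adjustment over all 18193 genes. An exact two-sided permutation test of a single gene cannot give a p below 0.1 with these group sizes.

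Bst2, Spib and Siglech were higher in brain DCs, and the other 6 measured pDC genes, Tcf4 among them, were not called. Thus 3 members were called higher and 0 lower by limma, where 16.9% of all genes were called higher, 16.9% lower and 66.2% not at all. By the unadjusted limma p, 6 members were higher, against 23.5% of all genes. By the same p 0 were lower, and the share of all genes lower was not computed. The median difference of the 9 was 0.47, against 0.085 over all genes. The arrays of the groups did not overlap for 7 of the 9 members, and did not for 60.2% of all genes. Pacsin1 is among the 7 by a small margin, with brain DC replicate 1 at -0.755 and monocyte replicate 3 at -0.758. All 3 called members differed at least 2-fold. Thus 3 of the 9 were both called higher and at least 2-fold higher, against 6.03% of all genes. Of the 19 single probe sets, 5 were called higher, 1 lower and 13 not called, where 13.5% of all probe sets were called higher, 16.8% lower and 69.8% not called. Groups did not overlap for 10 of the 19, against 57.0% of all probe sets. The 5 became 3 without monocyte replicate 1. The 1 lower, a Tcf4 probe set, kept its call with monocyte replicate 2 left out and lost it with any other single array left out.

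**Figure D1:**
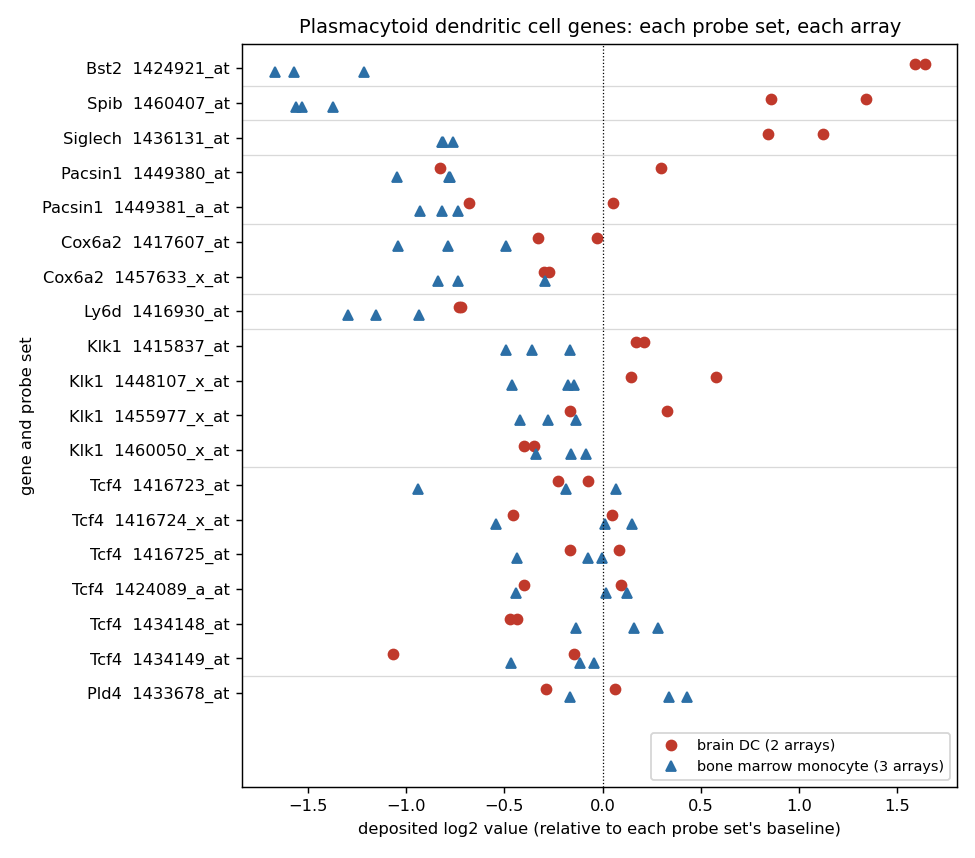
Deposited log2 value of each of the 19 probe sets on each array, with brain DC arrays as circles and monocyte arrays as triangles; the dotted line is the probe set baseline. Bst2, Spib and Siglech show wide gaps between the groups, Pacsin1 a gap between the 2 brain DC arrays, and Pld4 and most Tcf4 probe sets mixed arrays.

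**Figure D2:**
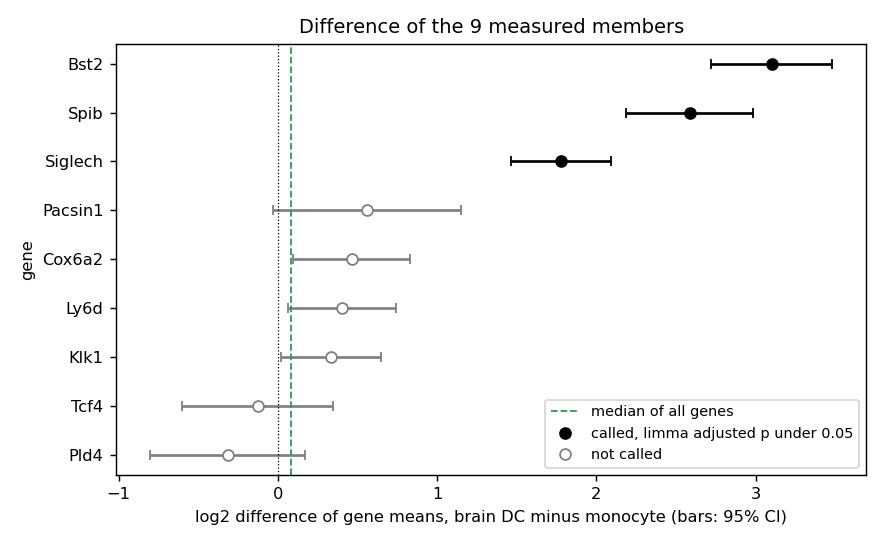
Log2 difference of gene means, brain DC minus monocyte, with 95% confidence intervals of the limma fit for the 9 measured genes, and the median of all genes as a dashed line. Filled points are called, which are Bst2, Spib and Siglech.

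Bst2 gave the largest difference of the 9 measured members. Its 1 probe set read 1.59 and 1.64 in the brain DC arrays and -1.22, -1.57 and -1.67 in the monocyte arrays. Every brain DC array was thus above the baseline and every monocyte array below it. The difference was 3.10 ± 0.16, or 8.59-fold, with a limma adjusted p of 1.85e-05, and it ranked 134 of 18193 genes from the top.

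Siglech, widely used to mark mouse pDCs, read 1.12 and 0.84 in brain DCs and -0.76, -0.82 and -0.81 in monocytes. The groups did not overlap, and the 3 monocyte arrays lay within 0.06 of each other, a range narrower than in all but 2.46% of probe sets. The difference was 1.78 ± 0.13, or 3.43-fold, with a limma adjusted p of 9.38e-05. In bulk cells, fewer cells of a type and less RNA per cell cannot be told apart, here or in any result that follows. Siglech is also a microglial gene, and microglial markers moved with it: 10 of 12 measured were higher and 1 lower, with a median of 1.59. Tmem119 was at 2.05 ± 0.13, P2ry12 at 2.49 ± 0.33 and Gpr34 at 3.64 ± 0.21, while Cx3cr1, which monocytes express too, was lower (-2.56 ± 0.22). The mean value of the 12 ran from 1.20 to 1.25 in brain DC arrays and from -0.25 to -0.13 in monocyte arrays, and their part in the Siglech result was not tested. Among the relatives of Siglech, Siglecf (1.85 ± 0.20), Siglecg (1.42 ± 0.17), the B cell gene Cd22 (1.31 ± 0.16) and the myelin gene Mag (0.49 ± 0.16) were also higher. Cd33 (0.12), Siglec1 (0.00012) and Siglece (-0.099) were not called, and their groups overlapped. Tyrobp, the gene of the adaptor through which Siglech signals, was at -0.30 ± 0.13 and not called (limma adjusted p = 0.108).

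Spib and Tcf4, both regulators of pDC identity, gave different pictures. Spib read 0.86 and 1.34 in brain DCs and -1.56, -1.37 and -1.53 in monocytes, so the groups stood far apart. Its difference was 2.59 ± 0.17, or 6.00-fold, with a limma adjusted p of 5.13e-05 and rank 184 of 18193. Its relative Spi1, which encodes PU.1, was also higher (0.80 ± 0.17) but was not called without brain DC replicate 2 (0.68, limma adjusted p = 0.0549).

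Tcf4 had no detectable difference. The mean of its 6 probe sets was -0.44 and -0.10 in brain DCs and 0.04, -0.49 and 0.02 in monocytes, with the groups interleaved. The difference was -0.13 ± 0.20, with a 95% confidence interval from -0.60 to 0.35 (limma adjusted p = 0.666), and it turned to 0.045 without brain DC replicate 1. An increase of the size seen for Spib lies outside that interval. Probe set 1434148_at of Tcf4 read -0.47 and -0.43 in brain DCs and 0.28, -0.13 and 0.16 in monocytes. It was called lower (-0.56 ± 0.18, limma adjusted p = 0.0479 over all probe sets), but in 5 of its 10 alternative fits it was not, among them those without either brain DC array (-0.54 and -0.58), without monocyte replicate 1 (-0.47) and without monocyte replicate 3 (-0.53). Probe set 1434149_at was at -0.40 ± 0.28 and not called, with its brain DC arrays 0.92 apart, and was called lower without brain DC replicate 2 (-0.86, limma adjusted p = 0.0344). The remaining 4 lay between -0.077 and 0.20 and were not called. Which transcripts of Tcf4 each probe set reads was not analysed here.

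The other E protein genes were not called either, with Tcf3 at -0.43 ± 0.17 (limma adjusted p = 0.0833) and Tcf12 at -0.24 ± 0.13. Tcf3 was called lower without brain DC replicate 2 (-0.63, limma adjusted p = 0.0393). Tcf12 was called lower with the median over its probe sets (-0.42, limma adjusted p = 0.0447). Their inhibitors Id2 and Id3 were higher in brain DCs. Id2 read 1.12 and 0.95 in brain DCs and -1.34, -1.48 and -1.24 in monocytes, a difference of 2.39 ± 0.14 (5.24-fold, limma adjusted p = 2.56e-05). Id3 read 3.78 and 3.65 against -1.47, -1.46 and -1.58, a difference of 5.22 ± 0.12 (37.3-fold, limma adjusted p = 8.12e-07). The groups did not overlap for either Id gene.

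Pacsin1 and Pld4, which act on endosomal sensing, were not called. Pacsin1 differed most between the 2 brain DC arrays: its gene mean was -0.76 in replicate 1 and 0.18 in replicate 2, against -0.85, -0.93 and -0.76 in monocytes. One brain DC array was therefore at the monocyte level and the other well above it. Both probe sets showed that gap, 1.12 for 1449380_at and 0.74 for 1449381_a_at, where the median gap over all probe sets was 0.235 and its 95th percentile 0.865. The difference was 0.56 ± 0.25 (limma adjusted p = 0.131). With brain DC replicate 1 left out it was 1.02 and called (limma adjusted p = 0.00533), and with replicate 2 left out 0.092 (limma adjusted p = 0.693). Pld4 read -0.29 and 0.06 in brain DCs and 0.34, -0.16 and 0.43 in monocytes, with overlapping groups. Its difference was -0.31 ± 0.21, with a 95% confidence interval from -0.80 to 0.17 (limma adjusted p = 0.287). Its relative Pld3, a nuclease of the same compartment, was at -0.11 ± 0.13 and not called. Pld1, a phospholipase that makes phosphatidic acid, was lower (-1.92 ± 0.13).

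Ly6d, Cox6a2 and Klk1 had small positive differences that did not pass the threshold. Ly6d, a surface protein of early lymphoid cells, read -0.72 and -0.73 in brain DCs and -1.30, -1.15 and -0.94 in monocytes. All 5 arrays were below its baseline, and the groups did not overlap. Its difference was 0.40 ± 0.14 (limma adjusted p = 0.0678), called after quantile normalisation of the 5 arrays (0.45, limma adjusted p = 0.0437). Cox6a2, the muscle isoform of a cytochrome c oxidase subunit, had a gene mean of -0.16 and -0.30 in brain DCs and -0.94, -0.61 and -0.54 in monocytes. Its difference was 0.47 ± 0.16 (limma adjusted p = 0.0560), again without overlap. Klk1, a tissue kallikrein that frees kinins, was at 0.18 and -0.05 in brain DCs and -0.21, -0.36 and -0.23 in monocytes, a difference of 0.33 ± 0.13 (limma adjusted p = 0.0971).

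The call of Klk1 and Cox6a2 depended on which probe sets were read. For Klk1, 1415837_at (0.53 ± 0.16, limma adjusted p = 0.0440) and 1448107_x_at (0.62 ± 0.19, limma adjusted p = 0.0455) were called higher, each in only 3 of 10 alternative fits. Probe sets 1455977_x_at at 0.36 and 1460050_x_at at -0.18 were not called. Identifiers that end in _x_at or _s_at mark probes that can match several transcripts, and Klk1 has close relatives in the Klk1b genes. Read without such probe sets, Klk1 was called higher (0.53, limma adjusted p = 0.0247), as was Cox6a2 (0.60, limma adjusted p = 0.0464), and 5 members were called in place of 3. For Cox6a2 this left 1417607_at, which was not called in the fit of all probe sets (0.60 ± 0.21, limma adjusted p = 0.0646). Its other probe set, 1457633_x_at, had overlapping groups and was not called (0.34 ± 0.20, limma adjusted p = 0.247). Of the measured Klk1b genes, Klk1b21 was called higher (0.55), and the others lay between -0.28 and 0.27 and were not called. Cox6a1, the ubiquitous isoform gene beside Cox6a2, was higher (1.16 ± 0.18), but not without the _x_at and _s_at probe sets (0.29, limma adjusted p = 0.195). Of 8 muscle genes, whose tissue uses Cox6a2, 0 were called by limma in either direction, with a median of 0.40. By the unadjusted limma p 4 were higher and 0 lower, where 23.5% of all genes were higher. Without brain DC replicate 1, 4 of the 8 were called higher, and without brain DC replicate 2, 2 were. Their mean ran from 0.15 to 0.28 in brain DC arrays and from -0.19 to -0.12 in monocyte arrays, and their part in the Cox6a2 values was not tested.

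**Figure D3:**
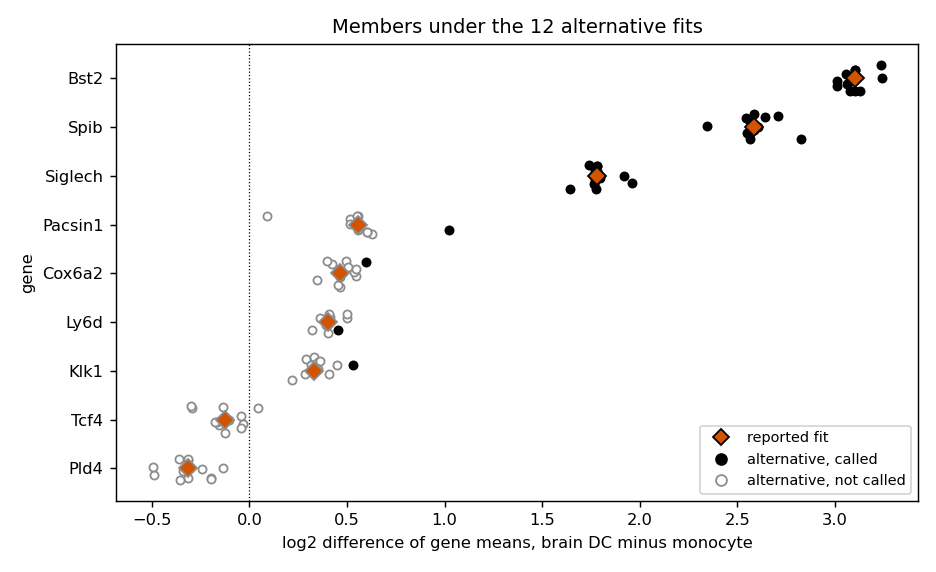
Log2 difference of each measured member in the reported fit (diamond) and in the 12 alternative fits (circles, filled where called). Bst2, Spib and Siglech were called in all 12, while Pacsin1 spread from 0.092 to 1.02.

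Genes that act with the members were read in lists, to be set against the 16.9% of all genes called higher, the 16.9% called lower and the median of 0.085. Counts by the unadjusted limma p are to be set against the 23.5% of all genes higher by it. The share lower by it was not computed. Of 17 regulators that partner or oppose the member factors, 7 were higher, 3 were lower and 7 were not called (median 0.27). Beside Id2, Id3 and Spi1, Irf7, the master factor of interferon induction, was higher (1.57 ± 0.27). Irf8, which pDCs and type 1 conventional DCs use, was higher (0.86 ± 0.20) but not called without brain DC replicate 2 (0.79, limma adjusted p = 0.0637). Cbfa2t3, a corepressor, was at 0.43 ± 0.14 with a limma adjusted p of 0.0484, and was called in 1 of 12 alternatives. Zeb2, a repressor of Id2 that pDC and monocyte programmes use, read -0.29 and -0.57 in brain DCs and 2.19, 2.18 and 2.29 in monocytes. Its difference was -2.65 ± 0.14 (limma adjusted p = 1.80e-05), with the groups far apart, and Stat5b (-1.19) and Lmo2 (-0.70) were also lower. Bcl11a, a factor that pDCs need, was at 0.27 ± 0.14 and not called (limma adjusted p = 0.173). Its 7 probe sets ran from -0.41 to 0.90. The probe set at 0.90 ± 0.21 was called higher (limma adjusted p = 0.0148 over all probe sets), without overlap, and the others were not called.

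Among 10 pDC surface genes, 6 were higher, 0 lower and 4 not called by limma (median 1.05), and 7 higher and 0 lower by the unadjusted limma p. Cxcr3, a chemokine receptor that activated T cells also carry, was 13.3-fold higher (3.73 ± 0.28), and Klra17, which encodes the pDC receptor Ly49Q, 13.2-fold (3.72 ± 0.22). Ccr9, a gut-homing receptor of pDCs, was 2.44-fold higher (1.29 ± 0.13), although its 5 probe sets ran from 0.12 to 2.77. Lair1 (1.13 ± 0.13) and Lag3 (1.03 ± 0.15), both inhibitory receptors, were higher too. The genes not called were Cd4 (0.14), Ptprs (0.21), Cd209d (0.35) and Lifr (0.38).

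Another 18 pDC-enriched genes split into 8 higher, 2 lower and 8 not called (median 0.38). Tspan13, a tetraspanin, was 5.84-fold higher (2.55 ± 0.19), and Blnk, a B cell and pDC signalling adaptor, 4.29-fold (2.10 ± 0.23). Pltp (1.92 ± 0.28) and Nucb2 (1.57 ± 0.17) followed. Dntt, which adds nucleotides in antigen receptor rearrangement, was at 0.43 ± 0.17 and not called (limma adjusted p = 0.0833), though it was with the median over its probe sets (0.46, limma adjusted p = 0.0419). The lower genes were Tex2 (-1.39) and Lrp8 (-0.56). Only 1 gene was called lower when monocyte replicate 2 or either brain DC array was left out.

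The TLR7 and TLR9 pathway, by which pDCs sense nucleic acid, was mixed. It had 5 of 17 genes higher, 1 lower and 11 not called (median 0.00). Irf7, the protease gene Lgmn (1.12 ± 0.21), the TLR chaperone gene Cnpy3 (0.88 ± 0.19), Irf5 (0.60) and Tlr9 (0.45 ± 0.13) were higher. Tlr9 read 0.07 and 0.00 in brain DCs and -0.36, -0.55 and -0.36 in monocytes, without overlap. It was not called when any 1 of the 5 arrays was left out, at 0.39 to 0.49. Cnpy3 was not called without brain DC replicate 2 (0.81, limma adjusted p = 0.0550). Tlr7 at -0.50 ± 0.25 and Unc93b1, the transport chaperone of both receptors, at -0.07 ± 0.16 were not called, and Unc93b1 turned to 0.13 without brain DC replicate 1. Ap3b1, a subunit of the adaptor that sorts these receptors, was lower (-1.08 ± 0.15). The 5 became 3 without brain DC replicate 2. The 1 lower became 2 when monocyte replicate 2 or either brain DC array was left out, and 3 with arrays centred on their medians.

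Of 10 interferon and receptor genes, 2 were higher, 1 was lower and 7 were not called, where 66.2% of all genes were not called (median 0.048). Ifna9 (0.54 ± 0.14) and Ifna1 (0.54 ± 0.14) were the higher ones. Without brain DC replicate 1 neither was called (0.38 and 0.44), and 1 of them was without monocyte replicate 1, 2 or 3. Ifnb1 was at 0.50 ± 0.19 and not called (limma adjusted p = 0.0822), and the receptor chain gene Ifnar2 was lower (-1.17 ± 0.13). Interferon alpha genes are near-identical copies, so their probe sets may share signal.

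Since Bst2 is induced by interferon, 19 other interferon-response genes were read beside it. They gave 5 higher, 0 lower and 14 not called by limma (median 0.23), and 6 higher and 0 lower by the unadjusted limma p. Ifi35 (1.52 ± 0.17), Ifit3 (1.35 ± 0.26), Usp18 (1.14 ± 0.37), Rsad2 (1.01 ± 0.20) and Ifit2 (0.60) were higher, where Bst2 was at 3.10. Usp18, with a limma adjusted p of 0.0487, was not called when any of the arrays but monocyte replicate 1 was left out (0.82 to 1.47). The 5 became 3 without brain DC replicate 2, without monocyte replicate 2 and without monocyte replicate 3. The mean of the 19 ran from 1.20 to 1.60 in brain DC arrays and from 0.65 to 1.46 in monocyte arrays, so these overlapped where those of Bst2 did not. Their part in the Bst2 result was not tested.

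**Figure D4:**
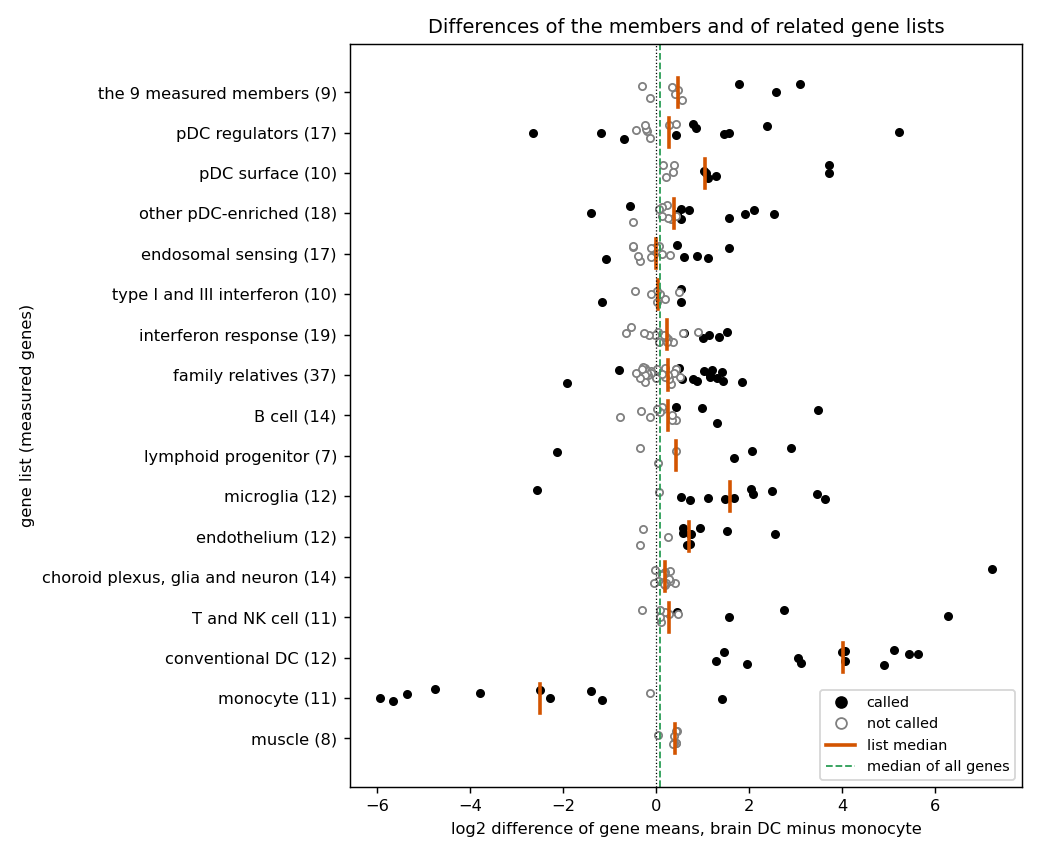
Log2 difference of gene means, brain DC minus monocyte, for the 9 measured members and for 16 related lists, 1 point per gene (filled where called), with list medians as vertical bars and the median of all genes as a dashed line. The members have a median of 0.47, conventional DC genes one of 4.03 and monocyte genes one of -2.49.

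Relatives of the members by family were also read: 12 of 37 were higher, 2 lower and 23 not called (median 0.26). Among Runx genes, with Runx2 itself unmeasured, Runx3 was higher (1.02 ± 0.21) but not called without brain DC replicate 2 (0.82, limma adjusted p = 0.0539). Runx1 was at -0.35 ± 0.13 and not called, and its 6 probe sets ran from -1.43 to 0.67. Cbfb, the shared partner of Runx proteins, was lower (-0.80). Of the measured relatives of Ly6d, Ly6i was higher (1.44 ± 0.18), and Ly6k (0.33), Ly6h (0.015) and Ly6e (-0.17) were not called.

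Cell types that share member genes were checked by their own markers. Conventional DC genes had a median of 4.03, with Xcr1 at 5.64 ± 0.15, Itgae at 5.44 ± 0.17 and Flt3 at 3.06 ± 0.24. B cells express Spib and Ly6d too, and their list had 4 of 14 genes higher, 0 lower and 10 not called by limma (median 0.25), and 6 higher and 0 lower by the unadjusted limma p. Fcrla (3.47 ± 0.24), Cd22, Ms4a1 (1.00 ± 0.16) and Vpreb3 (0.44 ± 0.12) were higher, and Vpreb3 was called with only brain DC replicate 1 left out, not with any other array left out (0.37 to 0.45). The antigen receptor genes Cd79a (-0.14 ± 0.15) and Cd79b (-0.78 ± 0.40) were not called. Cd79b read -2.07 in brain DC replicate 1 and -0.47 in replicate 2, and was called lower without replicate 2 (-1.58, limma adjusted p = 0.00119). The B cell mean ran from -0.067 to 0.012 in brain DC arrays and from -0.55 to -0.38 in monocyte arrays, and its part in the values of Spib, Ly6d and Bst2 was not tested.

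Lymphoid progenitors, which Ly6d also marks, had 3 of 7 genes higher, 1 lower and 3 not called: Cd34 (2.91 ± 0.43), Kit (2.06 ± 0.19) and Il7r (1.67 ± 0.22) were higher and Notch1 (-2.12 ± 0.12) lower. Their mean ran from 0.038 to 0.24 in brain DC arrays and from -0.59 to -0.40 in monocyte arrays. Endothelium, which expresses Tcf4, had 9 of 12 genes higher and 0 lower by limma (median 0.70), led by Cldn5 (2.56 ± 0.24), and 9 higher and 0 lower by the unadjusted limma p. The 9 became 5 when monocyte replicate 2, monocyte replicate 3 or brain DC replicate 1 was left out, and 1 gene was lower without brain DC replicate 2. Their mean ran from 0.40 to 0.50 in brain DC arrays and from -0.33 to -0.23 in monocyte arrays. Of 14 choroid plexus, glial and neuronal genes, 1 was higher, Ttr (7.22 ± 0.12), and 0 lower by limma, with 3 higher and 0 lower by the unadjusted limma p, and list means from 0.55 to 0.66 against -0.12 to -0.026. Of 11 T and NK cell genes, 4 were higher and 0 lower by limma, led by Klrd1 (6.29 ± 0.30) and Gzma (2.75 ± 0.31), with 5 higher and 0 lower by the unadjusted limma p, and list means from 0.58 to 0.65 against -0.58 to -0.41. The brain DC gate required high CD45, which endothelial, choroid plexus, glial and neuronal cells lack or, in microglia, carry at a lower level. Whether the sort kept such cells or their RNA out was not tested. The lineage panel of the gate would remove B, T and NK cells only if it held their markers, and the labels do not list it. The part of these cells in the member results was not tested, and values set against a baseline cannot show that a marker is absent.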

How the data were processed

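Gene expression was measured in 2 brain DC and 3 bone marrow monocyte samples. The authors' deposited log2 values came from RMA, per the submitters' processing notes; that they are log2 is read from the method's name. The log base, the baseline step and which arrays were normalised together were not stated. Values lie around 0 in each probe set, so no filter on dim probes and no new background correction was run.

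Of 45101 probe sets, 64 controls were left out. The platform annotation gave 1 symbol to 34945, several to 932 and none to 9160. A gene was the mean of its probe sets (18193 genes, 9010 with several).

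Groups were compared with limma 3.58.1 in R 4.3.3 (lmFit, eBayes, no covariate; 3 residual degrees of freedom), with Benjamini-Hochberg adjustment over all genes or all probe sets. The number of arrays limits the precision. The fit was tested on simulated data. The members and the 16 lists were chosen with earlier results of these data known. All members are named, and from each list up to 4 called genes with the largest differences and no overlap, plus a fixed set of partners. Stat5b, Lmo2, Tex2, Lrp8, Cd4, Ptprs, Cd209d, Lifr, Irf5, Ifit2, Klk1b21, Cbfb, S100a9, Mag, Cd33, Siglec1, Siglece, Ly6k, Ly6h and Ly6e were named after their values were seen.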

Additional observations from a re-analysis of the deposited data

How the results depend on the processing

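Each member was refitted under 12 alternatives: the median over probe sets, no _x_at or _s_at probe sets, quantile normalisation, arrays centred on their medians, robust eBayes, array weights, the replicate number as a block, and each array left out. Not all of these could move a result. The first 2 could not change the difference of the 5 members with 1 probe set, Bst2, Spib and Siglech among them. Robust eBayes changes no difference, and the block gave the same differences as leaving out monocyte replicate 3. The counts that follow include such refits. Of 108 member refits, 103 kept their direction and side of the threshold, 4 passed it and 1 changed sign. Bst2, Spib and Siglech were called in all 12. The count of members called higher was 5 without _x_at and _s_at probe sets, 4 after quantile normalisation and 3 to 4 with an array left out, and 0 were called lower in any. Member probe sets called higher were 3 with centred arrays, 3 with array weights and 3 to 5 with an array left out, and those called lower 0 to 1. Without brain DC replicate 2 that 1 was another Tcf4 probe set (1434149_at) than in the reported fit (1434148_at).

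With an array left out, these differences changed sign: the Tcf4 gene mean (-0.30 to 0.045), its probe sets 1416723_at (-0.093 to 0.41), 1416724_x_at (-0.33 to 0.17), 1416725_at (-0.0021 to 0.26), 1424089_a_at (-0.30 to 0.19) and 1434149_at (-0.86 to 0.061), and Cd79a (-0.31 to 0.029), Cd79b (-1.58 to 0.019) and Unc93b1 (-0.27 to 0.13). The cause was not tested.

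The labels do not say that a replicate number links the groups, and deviations of same-numbered arrays correlated at 0.045 and 0.088 over genes. The 2 brain DC arrays deviate from their mean in exactly opposite ways, so these correlations are not separate checks. Pairs of differing number ran from -0.088 to 0.053. With the replicate number as a block, which leaves out monocyte replicate 3, 3 members were called higher, 0 member probe sets were called lower in place of 1, and the Tcf4 probe set 1424089_a_at turned to 0.0050. Over all genes, 2513 were called higher with the block in place of 3068, and 3006 lower in place of 3083.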
